A study of Mus musculus with 32 samples.

Results

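The genes described here lie together on mouse chromosome 3: Spata5, Anxa5, Nudt6, Fgf2, Spry1, Ankrd50, Bbs7, Exosc9 and 4932438A13Rik. Spata5 and Anxa5 were chosen because they passed the test in the comparison of vehicle-treated YAC128 mice with wild-type mice in these libraries, and the other 7 because they are neighbours of that pair. The 9 genes are 9 of 55415 features counted in each library. YAC128 mice carry a human huntingtin gene with an expanded glutamine repeat on a yeast artificial chromosome, here on a B6 background. The striatum, the forebrain region most affected in Huntington disease, was profiled by 3'-end RNA sequencing in 32 libraries, each from a separately numbered animal, with 8 libraries in each of 4 groups. Wild-type (WT) littermates and 1 group of YAC128 mice received artificial cerebrospinal fluid (aCSF). The other YAC128 mice received a scrambled oligonucleotide or AON12.1, an antisense oligonucleotide whose target in the title is the caspase-6 cleavage site of HTT. Oligonucleotide was given into the lateral ventricle as 500 µg in 10 µL. Every mouse was injected 3 times, starting near 6 months and repeating after 2 and 4 weeks, and was killed for tissue at 12 months. Every YAC128 group carries the transgene, and there was no WT group with oligonucleotide. The transgene's insertion site and the strain of origin of this stretch of chromosome 3 are not stated in the labels. The transgene, a stretch of chromosome inherited with it and the phenotype of the mice cannot be told apart in this design.

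A transgene can change the expression of genes next to its insertion site. Mice bred onto a new strain can also keep a stretch of the donor strain's chromosome around a selected locus, so that neighbouring genes carry other alleles. In both cases the genes that can be affected lie in the same region, and not every gene of that region need change. The whole neighbourhood is therefore given here and not the pair alone. The genes themselves have unrelated jobs. Spata5 encodes an AAA ATPase that works in the maturation of the large ribosomal subunit, and its loss in people causes a neurodevelopmental disorder with epilepsy and hearing loss. Anxa5 encodes annexin A5, which binds phosphatidylserine on membranes in the presence of calcium.

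Along the chromosome in the GRCm38 annotation the order was Anxa5, Exosc9, Bbs7, 4932438A13Rik, Fgf2, Nudt6, Spata5, Spry1 and Ankrd50. Spata5 and Nudt6 are transcribed from opposite strands, their annotated bodies overlap, and their RefSeq start sites lie 353 bases apart. Nudt6 also overlaps Fgf2 on the opposite strand. No label says whether counting used strand. Each file sets ambiguous reads apart from the gene counts, 1.23% to 1.90% of its sum. Whether reads of Spata5, Nudt6 and Fgf2 from the overlapping stretches are among them is not known. Spry1 and Exosc9 likewise each overlap a gene of the opposite strand, the latter Ccna2.

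The sequences upstream of the RefSeq start sites of Spata5, Nudt6 and Anxa5 are shown because Spata5 and Nudt6 share a start region while Spata5 and Anxa5 were the pair chosen. They come from RefSeq for build GRCm38.p6 and cover the 250 bases before each start. The Spata5 window is chr3:37419700-37419949 on the plus strand, the Nudt6 window is chr3:37419597-37419846 on the minus strand, and the Anxa5 window is chr3:36475888-36476137 on the minus strand. Each is written 5′ to 3′ on its gene's own strand, and capitals mark every GC box, GGGCGG or its reverse complement CCGCCC.
Spata5: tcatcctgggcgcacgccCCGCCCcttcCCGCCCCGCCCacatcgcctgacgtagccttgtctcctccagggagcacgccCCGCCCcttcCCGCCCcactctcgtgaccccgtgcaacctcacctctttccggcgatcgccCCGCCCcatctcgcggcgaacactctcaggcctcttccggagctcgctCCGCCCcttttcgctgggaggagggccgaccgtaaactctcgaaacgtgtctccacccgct
Nudt6: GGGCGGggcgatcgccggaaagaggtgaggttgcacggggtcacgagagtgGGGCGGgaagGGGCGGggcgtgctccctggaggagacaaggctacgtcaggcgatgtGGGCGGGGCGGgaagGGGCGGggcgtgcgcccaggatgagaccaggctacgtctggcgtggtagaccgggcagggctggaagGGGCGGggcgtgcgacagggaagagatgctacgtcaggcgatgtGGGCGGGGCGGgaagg
Anxa5: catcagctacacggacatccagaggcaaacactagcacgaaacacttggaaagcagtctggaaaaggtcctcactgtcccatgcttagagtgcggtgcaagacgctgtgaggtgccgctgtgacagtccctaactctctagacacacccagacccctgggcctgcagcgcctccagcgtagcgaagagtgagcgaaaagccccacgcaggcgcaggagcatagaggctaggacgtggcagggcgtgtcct
The Spata5 and Nudt6 windows share 147 bases, read in opposite directions. The Spata5 window held 7 GC boxes, counted on both strands with overlapping matches included. At least 1 GC box was found in 32.7% of 32851 RefSeq windows of the same length, and at least 7 in 0.411%. The Nudt6 window held 9, a count reached by 0.073% of windows, and part of that count lies in the bases it shares with Spata5. The Anxa5 window held 0. The ETS core CCGGAA, with its reverse complement TTCCGG, occurred 2 times in the Spata5 window, 1 time in the Nudt6 window and 0 times in the Anxa5 window, and 12.0% of all windows held it. The windows of Spata5, Nudt6 and Anxa5 had 0 matches to CCAAT or TATAAA on either strand. GC content was 69.2% for Spata5, 71.6% for Nudt6 and 58.8% for Anxa5, against a median of 52.4% over all windows. A window was found for 8 of the 9 genes. That of 4932438A13Rik held 6 GC boxes, a count reached by 0.886% of windows, at a GC content of 69.2%. Ankrd50 held 4 or 3 by start site, Bbs7 held 2, and Fgf2 and Spry1 held 1 each.

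Levels are CPM, counts relative to the size of the library, after TMM normalization, a scaling that corrects for library composition. The libraries held 658934 to 1419313 gene counts, so 1 count was worth about 1 CPM. The segment genes were therefore measured with few counts, from 0 to 3 per library for Fgf2 up to 22 to 85 for Anxa5. For a 3'-end method CPM is not divided by transcript length, and levels of different genes are not compared here. In bulk tissue, more cells expressing a gene and more RNA per cell cannot be told apart.

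Spata5 stood at 3.24 CPM in the lowest, 4.78 at the median and 8.10 in the highest of the WT libraries, from 2 to 9 counts each. In YAC128 mice given aCSF it ran from 11.4 through a median of 14.7 to 23.4 CPM. With the scrambled oligonucleotide it ran from 10.0 through 14.0 to 22.5 CPM, and with AON12.1 from 8.61 through 18.0 to 22.7 CPM. All 24 YAC128 libraries lay above all 8 WT libraries, and the 3 YAC128 groups overlapped one another. Across the 10679 genes tested, 0.0281% separated the genotypes in this way, namely 3 genes: Spata5, Enpp6 on another chromosome, and the feature without a mouse Ensembl identifier that marks the transgenic mice. Because Spata5 was chosen by part of these libraries, this separation is a description.

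The group means of Spata5 were 5.39 CPM ± 1.86 in WT (SD, n = 8), 15.4 ± 3.77 in YAC128 with aCSF (n = 8), 14.6 ± 4.03 with the scrambled oligonucleotide (n = 8) and 17.0 ± 5.72 with AON12.1 (n = 8). The log2 fold change of YAC128 aCSF over WT was 1.43 ± 0.25 (SE), or 2.7-fold. That value chose the gene and carries no test here. Spata5 also passed the filter on low counts only through the YAC128 groups: the filter asked for 10.7 CPM in 8 libraries, which 0 WT and 21 YAC128 libraries reached.

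**Figure D1:**
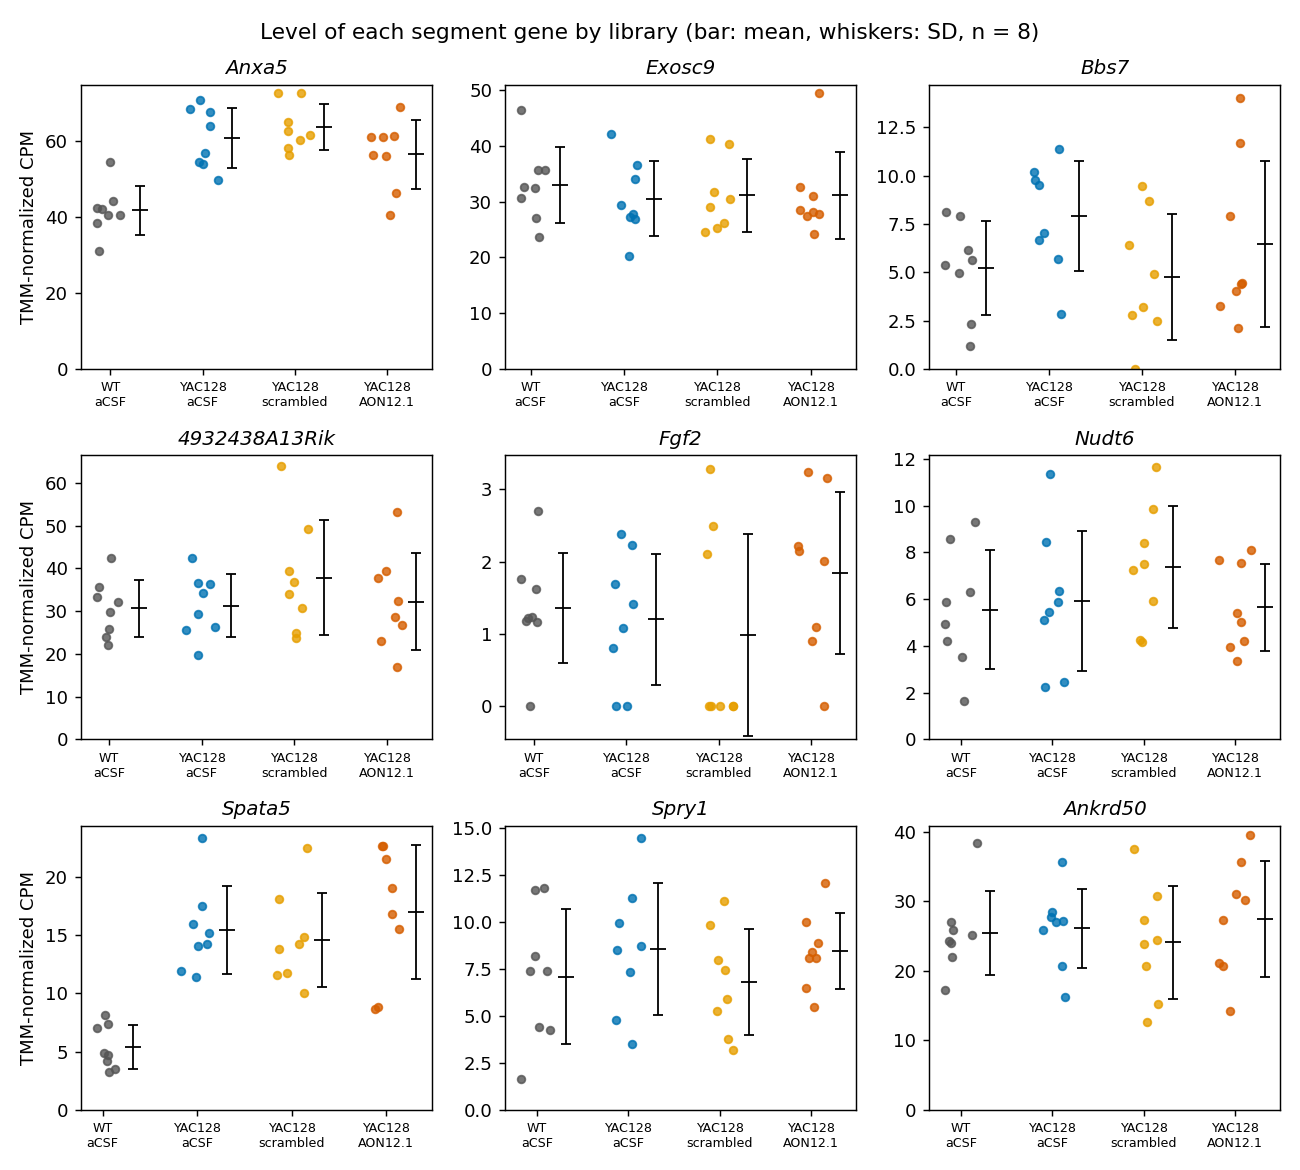
TMM-normalized CPM of each of the 9 genes in the 32 libraries, in chromosome order, with 1 point per library and the group mean and SD (n = 8) beside the points; each panel has its own vertical scale. Spata5 is higher in all 24 YAC128 libraries than in any WT library, and Anxa5 in 20 of 24, while the other 7 genes overlap between all groups.

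Anxa5 stood at 31.0 CPM in the lowest, 41.3 at the median and 54.3 in the highest WT library. It ran from 49.7 through 60.3 to 70.6 CPM in YAC128 mice given aCSF, from 56.2 through 62.1 to 72.6 with the scrambled oligonucleotide and from 40.5 through 58.6 to 68.9 with AON12.1. The scrambled group did not overlap WT, whereas 6 of 8 libraries of each of the other YAC128 groups lay above the highest WT library. For comparison, 0.0562% of tested genes had all 8 libraries of the scrambled group above all WT libraries.

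The means of Anxa5 were 41.7 CPM ± 6.48 in WT, 60.7 ± 7.88 with aCSF, 63.6 ± 6.13 with the scrambled oligonucleotide and 56.4 ± 9.10 with AON12.1 (SD, n = 8 each). The log2 fold change of YAC128 aCSF over WT was 0.54 ± 0.11 (SE), or 1.45-fold, again the value that chose the gene.

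Of the 9 genes, 5 passed the filter and were tested. In YAC128 aCSF against WT, 2 of these 5 were called at an adjusted p under 0.05, beside 0.0749% of all tested genes, and since this contrast chose them nothing is read from that count. YAC128 with the scrambled oligonucleotide and YAC128 with AON12.1 are separate animals, but both are compared with the same 8 WT libraries that chose the pair, so their values are not independent of that choice. Spata5, which entered the test only through its YAC128 libraries, is given without a p-value. Its log2 fold change of the scrambled group over WT was 1.38 ± 0.25 (SE), or 2.61-fold. That of Anxa5 was 0.60 ± 0.11 (1.52-fold, adjusted p = 0.00475, edgeR quasi-likelihood test with Benjamini-Hochberg adjustment). The call rule was met by 2 of 5 tested members and by 0.169% of all tested genes, and nothing is read from that count.

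With AON12.1 against WT, the log2 fold change of Spata5 was 1.57 ± 0.25 (2.98-fold). Anxa5 had a log2 fold change of 0.44 ± 0.11 (1.36-fold) and did not pass, with an edgeR adjusted p of 0.0514. The call rule was met by 1 of 5 tested members and by 0.562% of all tested genes, and again nothing is read from the count. With the 3 YAC128 groups averaged against WT, the log2 fold change was 1.46 ± 0.22 for Spata5 and 0.53 ± 0.09 for Anxa5. That average includes the libraries that chose the pair, so its 2 called members of 5, beside 0.234% of all tested genes, are a description.

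The comparison of AON12.1 with the scrambled oligonucleotide uses no library that chose the genes. Spata5 had a log2 fold change of 0.19 ± 0.21 (95% interval -0.23 to 0.61, edgeR adjusted p = 0.900). Anxa5 had -0.16 ± 0.10 (95% interval -0.37 to 0.05, edgeR adjusted p = 0.792). These intervals leave room for a difference between the oligonucleotides. None of the 5 tested members was called, where 0.14% of all tested genes were called, and 0 of 5 had an unadjusted p under 0.05. AON12.1 against aCSF and scrambled against aCSF likewise called 0 of 5 members, with 0 unadjusted p under 0.05, beside 0.309% and 0.0843% of all tested genes. DESeq2 and limma voom also called 0 members in these 3 comparisons.

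Of the other 7 genes, Exosc9, 4932438A13Rik and Ankrd50 were tested, and none was called in the 7 comparisons. Nudt6, Fgf2, Spry1 and Bbs7 entered only the fit to all features described below, again without a call. Of all genes, 0.0749% to 0.562% were called in the main fit and 0.055% to 0.307% in the other. Nothing is read from these counts. Exosc9, a subunit of the RNA exosome core, is the next tested gene after Anxa5. It stood at 33.1 CPM ± 6.79 in WT, 30.6 ± 6.78 with aCSF, 31.2 ± 6.51 with the scrambled oligonucleotide and 31.2 ± 7.83 with AON12.1 (SD, n = 8 each). All 4 groups overlapped, with a WT range of 23.7 to 46.5 CPM and a YAC128 range of 20.3 to 49.5 CPM. Its log2 fold change of all YAC128 over WT was -0.08 ± 0.13 (95% interval -0.34 to 0.19, edgeR adjusted p = 0.846).

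4932438A13Rik, which encodes a very large bridge-like lipid transfer protein, stood at 30.6 CPM ± 6.70 in WT, 31.3 ± 7.42 with aCSF, 37.9 ± 13.4 with the scrambled oligonucleotide and 32.2 ± 11.3 with AON12.1 (SD, n = 8 each). Its highest library, at 64.1 CPM, was in the scrambled group, and all groups overlapped. The log2 fold change of the scrambled group over WT was 0.33 ± 0.20 and did not pass (edgeR adjusted p = 0.604). In all YAC128 against WT it was 0.15 ± 0.17 (95% interval -0.19 to 0.49, edgeR adjusted p = 0.740).

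Ankrd50, an ankyrin repeat protein that acts in the recycling of membrane proteins from endosomes, closes the segment. It stood at 25.5 CPM ± 6.05 in WT, 26.1 ± 5.71 with aCSF, 24.1 ± 8.06 with the scrambled oligonucleotide and 27.5 ± 8.39 with AON12.1 (SD, n = 8 each). The groups overlapped throughout. The log2 fold change of all YAC128 over WT was 0.02 ± 0.16 (95% interval -0.31 to 0.35, edgeR adjusted p = 0.978).

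Nudt6, Fgf2, Spry1 and Bbs7 did not pass the filter, and their values come from the same edgeR model fitted to all 25434 features with any count. Nudt6, a nudix hydrolase, stood at 5.55 CPM ± 2.56 in WT, 5.90 ± 3.00 with aCSF, 7.38 ± 2.61 with the scrambled oligonucleotide and 5.65 ± 1.87 with AON12.1 (SD, n = 8 each). It had 1 to 8 counts per WT library. Its log2 fold change of all YAC128 over WT was 0.12 ± 0.29 (95% interval -0.46 to 0.69).

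The growth factor gene Fgf2 was at the detection limit, with 40 counts over all libraries and 0 counts in 9 of 32. A count of 0 allows up to 3 counts, or 2.17 to 4.86 CPM depending on the library, by counting error alone. Fgf2 averaged 1.36 CPM in WT, 1.20 with aCSF, 0.986 with the scrambled oligonucleotide and 1.85 with AON12.1. A difference of the size seen for Anxa5 was not detectable at this depth: the 95% interval of all YAC128 over WT ran from -1.20 to 0.86 on the log2 scale.

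Spry1, a feedback inhibitor of growth factor receptor signalling, is the coding gene that follows Spata5. It averaged 7.08 CPM ± 3.58 in WT, 8.56 ± 3.49 with aCSF, 6.81 ± 2.81 with the scrambled oligonucleotide and 8.43 ± 2.02 with AON12.1 (SD, n = 8 each). Its groups overlapped, with a log2 fold change of all YAC128 over WT of 0.09 ± 0.26 (95% interval -0.44 to 0.62). Bbs7, a subunit of the BBSome that carries membrane proteins in cilia, averaged 5.20 CPM ± 2.43 in WT, 7.89 ± 2.84 with aCSF, 4.74 ± 3.26 with the scrambled oligonucleotide and 6.47 ± 4.30 with AON12.1 (SD, n = 8 each). Bbs7 had the highest log2 value of these 4 in YAC128 aCSF against WT, 0.60 ± 0.39 (95% interval -0.17 to 1.37, edgeR adjusted p = 0.629), while its value in the scrambled group was -0.07 ± 0.42.

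For the 4 genes with too few counts for the filter, the 95% interval of all YAC128 over WT in the fit to all features still holds a change as large as that of Anxa5. No test of the difference between 2 genes' fold changes was made.

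**Figure D2:**
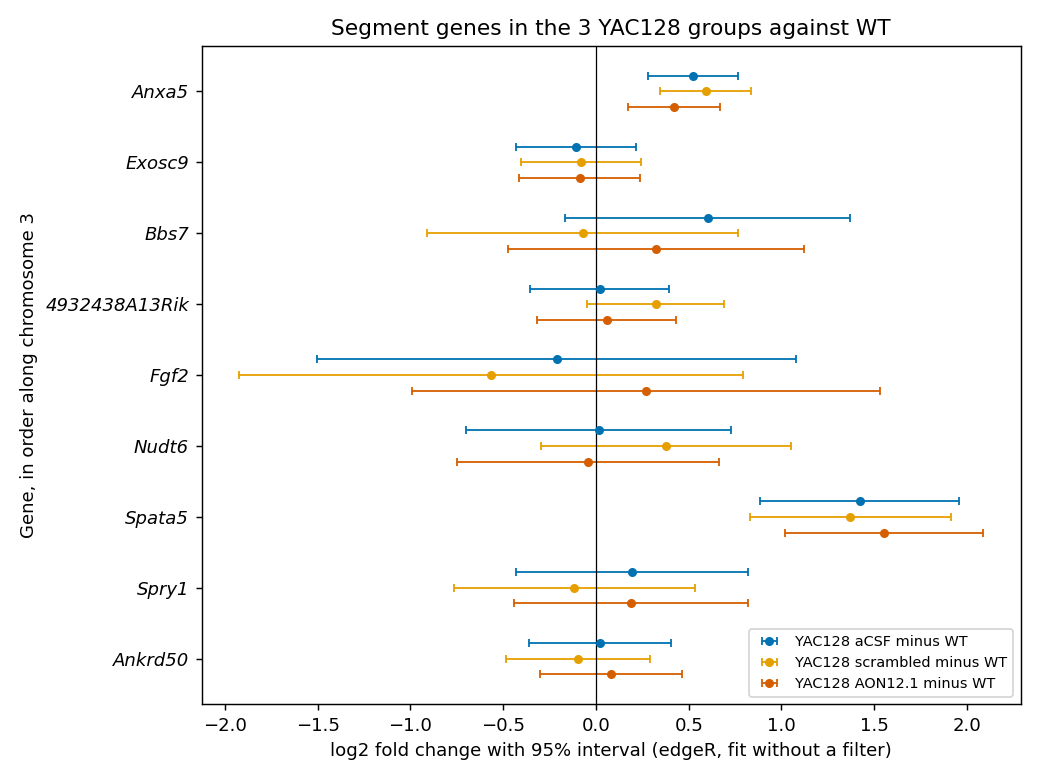
Log2 fold change with its 95% interval for each of the 9 genes, in chromosome order, in YAC128 with aCSF, scrambled oligonucleotide or AON12.1 against the same 8 WT libraries, from the edgeR fit to all 25434 features. Spata5 lies between 1.37 and 1.55 and Anxa5 between 0.42 and 0.59 in the 3 comparisons, and the interval of every other gene includes 0.

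The annotation places 61 features between the ends of Anxa5 and Ankrd50, of which 19 are protein coding, 29 had any count and 9 were tested. The 4 tested features that are not members are Il2, Cetn4, the ribosomal pseudogene Rps23-ps1 and 1 predicted gene. In the 7 comparisons 0 of these 4 were called, beside 0.0749% to 0.562% of all tested genes. Rps23-ps1 had a log2 fold change of 0.36 ± 0.13 in all YAC128 against WT, and its edgeR adjusted p was 0.224. A pseudogene of this kind shares sequence with its parent gene, so its counts are uncertain. In the fit to all features, 0 of 20 features of the segment outside the member list were called in any comparison. That fit called 0.0826% of features in YAC128 aCSF against WT, 0.13% in scrambled against WT, 0.307% in AON12.1 against WT, 0.189% in all YAC128 against WT, and 0.0786%, 0.224% and 0.055% in AON12.1 against the scrambled oligonucleotide, AON12.1 against aCSF and scrambled against aCSF. Rps23-ps1 had an unadjusted p under 0.05 in YAC128 aCSF, in the scrambled group and in all YAC128 against WT.

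The test reached 20 genes on each side of the segment. Of these 40, 0 were called in any of the 7 comparisons. By comparison, 0.0749% to 0.562% of all tested genes were called, so nothing is read from that count. In all YAC128 against WT, 5 of the 20 before Anxa5 and 1 of the 20 after Ankrd50 had an unadjusted p under 0.05, as did 1444 of all 10679 tested genes. The median log2 fold change was -0.01 before Anxa5 and 0.02 after Ankrd50, and the values ran from -0.69 for Slc7a11 to 0.54 for Abhd18. The nearest tested genes before Anxa5 were D3Ertd254e at -0.19, Mccc1 at -0.23 and Dcun1d1 at -0.29. The nearest after Ankrd50 were Hspa4l at -0.07 and Mfsd8 at 0.17. These nearest genes had negative values before Anxa5 and values of both signs after Ankrd50. In YAC128 aCSF against WT, 5 of 20 on each side had an unadjusted p under 0.05, beside 1340 of all 10679 tested genes. Values there ran from -0.70 for Slc7a11 to 0.90 for Abhd18, the latter above the 0.54 of Anxa5. The scrambled group against WT had 1 of 20 on each side, beside 1047 of all. AON12.1 against WT had 2 before Anxa5 and 1 after Ankrd50, beside 1546 of all. The called pair was separated by 4 tested genes that were not called.

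**Figure D3:**
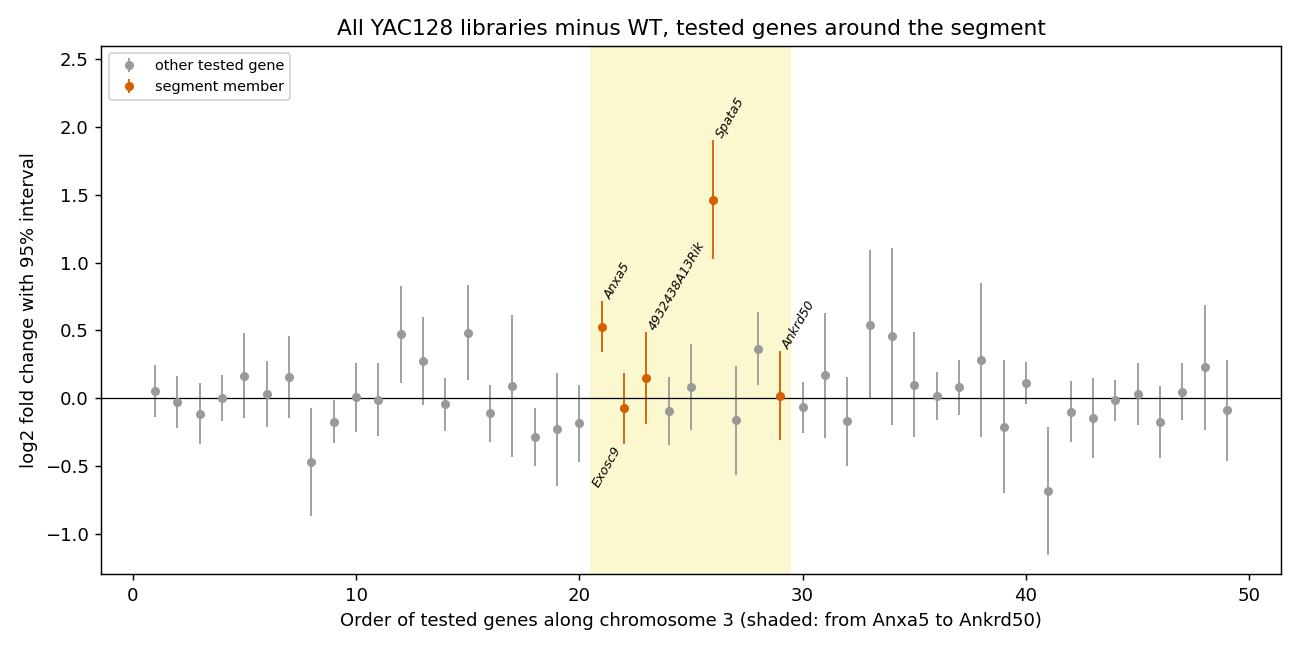
Log2 fold change of all 24 YAC128 libraries over 8 WT libraries, with 95% intervals, for the 9 tested features of the segment (shaded) and the 20 tested genes on each side, in chromosome order; spacing is by rank and not by distance. Spata5 at 1.46 and Anxa5 at 0.53 are the 2 called genes, and 4 tested genes that were not called lie between them.

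Over the whole chromosome, 521 genes were tested. In YAC128 aCSF against WT the called genes on chromosome 3 were the pair itself, 0.384% against 0.0591% of the 10158 tested features elsewhere, a share set by the choice of the pair. In the scrambled group against WT, 4 of 521 were called, or 0.768% against 0.138% elsewhere. That share includes the pair, chosen against the same WT libraries, and nothing is read from it. Beside the pair, the genes called there were Ap1ar, higher by 0.51 ± 0.10 (edgeR adjusted p = 0.0124), and Etnppl, which fell by 1.24 on the log2 scale (edgeR adjusted p = 0.0111). Both lie far from the segment, with 372 and 379 tested genes counted from Ankrd50. In AON12.1 against WT, 3 of 521 were called, Spata5, Ap1ar and Etnppl, which at 0.576% was near the 0.561% elsewhere. Metap1, 400 tested genes away, was called in all YAC128 against WT, where it fell by 0.63 (edgeR adjusted p = 0.0499). In the 3 comparisons among YAC128 groups, 0 of 521 were called, against 0.0886% to 0.325% of the 10158 elsewhere. At shares this low, nothing is read from that count. The median over chromosome 3 was 0.01 in YAC128 aCSF against WT, and the median over all tested genes was 0.00.

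Genes of the same families elsewhere in the genome were looked at as lists. In all YAC128 against WT, where 0.234% of all tested genes were called, 1444 of 10679 had an unadjusted p under 0.05. Of the type II AAA ATPases, 6 were tested, and the 1 called in each comparison with WT was Spata5, which had been chosen for it. The abundant members Nsf and Vcp, which pull apart protein complexes, had log2 fold changes of -0.09 ± 0.08 and -0.03 ± 0.06 in all YAC128 against WT. Of 12 annexins, 5 were tested. The 1 called in all YAC128 against WT was Anxa5, likewise chosen for it, while Anxa7 at 0.10 ± 0.09 and Anxa6 at -0.03 ± 0.11 did not pass. Anxa2 had 0.46 ± 0.19 and did not pass either (edgeR adjusted p = 0.275), with 0.49 in YAC128 aCSF, 0.41 in the scrambled group and 0.49 with AON12.1 against WT. The median was 0.16 for the AAA ATPases and 0.10 for the annexins, against 0.00 for all tested genes.

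Of the nudix hydrolases, to which Nudt6 belongs, 14 were tested and Nudt18 was the 1 called. It stood at 93.4 CPM ± 10.5 in WT and 61.3 ± 12.6 with AON12.1 (SD, n = 8 each), and fell by 0.61 on the log2 scale in that comparison (edgeR adjusted p = 0.00162), where 0.562% of all tested genes were called. In all YAC128 against WT Nudt18 fell by 0.40 (edgeR adjusted p = 0.0196). Of the genes of FGF signalling, the pathway of Fgf2 and Spry1, 0 of 18 tested were called in any comparison with WT. Their receptors Fgfr1 and Fgfr3 were at 0.10 ± 0.11 and -0.09 ± 0.10 in all YAC128 against WT. Of the BBSome and its assembly factors 0 of 10, of the RNA exosome and its cofactors 0 of 12, and of the bridge-like lipid transfer proteins 0 of 10 were called in these comparisons. Unadjusted p values under 0.05 in all YAC128 against WT numbered 2 of 18, 1 of 10, 2 of 12 and 1 of 10 in these 4 lists.

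The levels of Spata5 and Anxa5 were also set against each other from animal to animal. After each library's value was centred on its group mean, their log2 CPM had a Pearson r of -0.16 over the 32 libraries. The genes most like Spata5 by this measure were Zc4h2 at 0.68, Rida at 0.66 and Srebf1 at 0.64, on other chromosomes. Those most like Anxa5 were Arfgap3 at 0.74, Npffr1 at 0.68 and Slc35e3 at 0.67, also on other chromosomes. All libraries share depth and composition effects, and with 2 to 31 counts per library for Spata5 these values describe the libraries only.

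Within the 24 YAC128 libraries, uncentred, Pearson's r between Spata5 and Anxa5 was -0.41 (permutation p = 0.0428) and Spearman's rho -0.32 (permutation p = 0.124). Neither passed after adjustment over the 5 relations computed (adjusted p = 0.214 and 0.330), and r was -0.18 without the 2 libraries farthest from the Anxa5 median. By number series it was -0.72 in 8 and -0.34 in 16 libraries. Against the feature that marks the transgenic mice, r was -0.17 for Spata5 (permutation p = 0.414) and -0.17 for Anxa5 (permutation p = 0.441), with Spearman's rho of -0.19 (permutation p = 0.381) and -0.25 (permutation p = 0.241). Without the 2 farthest libraries these r were -0.11 and -0.29. The transgene feature itself was at 3.40 CPM ± 2.35 in WT and 144 ± 23.9 in YAC128 aCSF (SD, n = 8 each). It was at most 7.06 CPM in every WT library and at least 94.4 CPM in every YAC128 library, in keeping with all 32 labels.

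**Figure D4:**
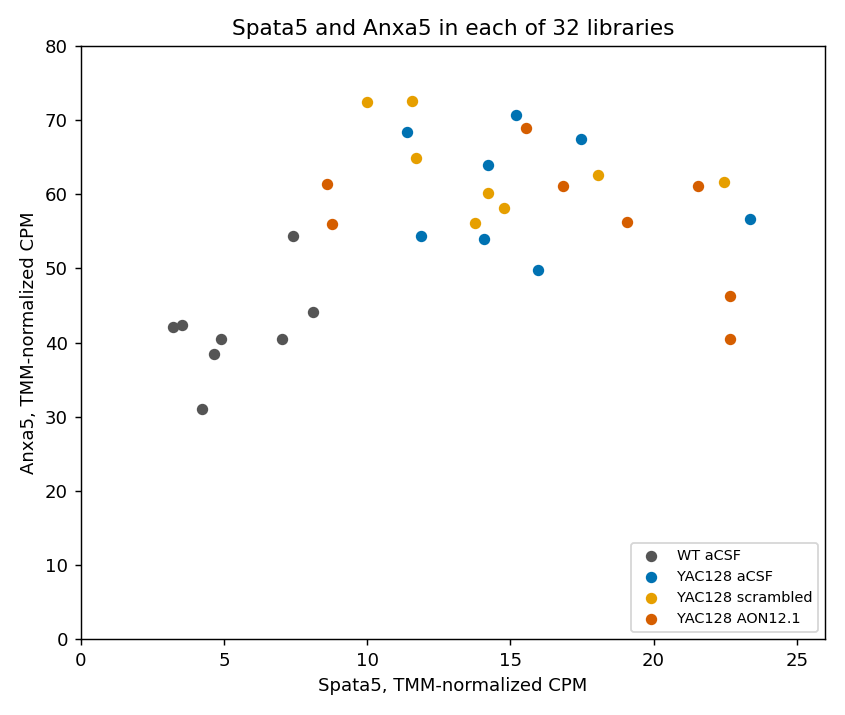
Level of Anxa5 against level of Spata5, both in TMM-normalized CPM, with 1 point for each of the 32 libraries coloured by group. The WT libraries sit at 3.24 to 8.10 CPM of Spata5, below every YAC128 library, and the YAC128 libraries with the highest Spata5 are not those with the highest Anxa5.

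Animal numbers start with 18 or 19 in the labels, and both series occur in every group. For Spata5 the means in the 18 series were 3.89 CPM in WT (n = 3), 12.9 with aCSF (n = 4), 13 with the scrambled oligonucleotide (n = 2) and 19.1 with AON12.1 (n = 2). In the 19 series they were 6.29 (n = 5), 18.0 (n = 4), 15.1 (n = 6) and 16.3 (n = 6). Anxa5 went from 41.7 CPM in WT to 54.7 to 62.6 in the YAC128 groups of the 18 series, and from 41.7 to 57.0 to 63.9 in the 19 series. The YAC128 means were above the WT mean in both series for both genes. With so few libraries, Anxa5 passed in neither series in any comparison with WT.

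Some features of the libraries differed between groups. Counts outside any feature made up 19.5% ± 4.40 of the file sum in WT and 25.7% ± 4.92 in YAC128 aCSF (SD, n = 8 each), with 1 WT library at 30.2%. The share was 22.1% ± 2.41 with the scrambled oligonucleotide and 23.8% ± 6.70 with AON12.1 (SD, n = 8 each). Within the YAC128 libraries, Pearson's r of this share was -0.28 with Spata5 (permutation p = 0.191, Spearman's rho -0.32, permutation p = 0.132) and -0.05 with Anxa5 (permutation p = 0.829, Spearman's rho -0.03, permutation p = 0.879). With the 2 libraries of most extreme share left out, r was -0.34 and 0.22. With the share as a covariate, the YAC128 aCSF over WT value was 1.55 for Spata5 and 0.54 for Anxa5, which was not called in that fit (edgeR adjusted p = 0.105). Without the WT library at 30.2%, these values were 1.37 and 0.55, and genes called in that comparison went from 8 to 142.

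Of 8 astrocyte markers, 8 were tested, and their summed level was 2875 to 3486 CPM in WT and 2382 to 2829 CPM in YAC128 aCSF, with no overlap. It was 2662 to 3181 CPM in the scrambled group and 2605 to 3218 CPM with AON12.1, both overlapping WT. The 13 markers of striatal projection neurons, all tested, summed to 5172 to 11169 CPM in WT and 3503 to 6999 CPM in YAC128 aCSF, and to 3294 to 7622 with the scrambled oligonucleotide and 5988 to 10841 with AON12.1. The 8 oligodendrocyte markers summed to 5863 to 7802 CPM in WT, 4390 to 6179 in YAC128 aCSF, 5619 to 6872 in the scrambled group and 5374 to 9849 with AON12.1. Oligodendrocyte precursor markers, 4 of 5 tested, summed to 50.7 to 101 CPM in WT, 75.3 to 127 in YAC128 aCSF, 83.1 to 131 in the scrambled group and 91.4 to 125 with AON12.1, all overlapping. No marker of these 4 lists was at 0 throughout a group, and their part in the Spata5 and Anxa5 values was not tested. Choroid plexus and ependyma genes, 3 of 8 tested, reached 3381 CPM in 1 YAC128 aCSF library against at most 117 in WT, and without that library the Spata5 and Anxa5 values were 1.45 and 0.56. The striatal markers Penk, Drd1 and Ppp1r1b were found in all 32 libraries, as the tissue label says.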

How the data were processed

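Striatal RNA of 32 mice was measured by a modified mcSCRB-seq method, which primes at the poly(A) tail. The submitters' processing notes name build GRCm39, HTSeq 0.12.4, STAR 2.7.5a, cutadapt 2.10 and FastQC. No source used here says whether molecular identifiers were collapsed. The deposited files hold whole-number counts for 55415 features, which the authors did not normalize, plus 5 summary lines left out of library sizes and tests. Counts in no feature made up 16.3% to 33.7% of a file's sum. GENCODE annotation of GRCm38 gave names, chromosome and order only, for 52133 features.

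Counts were tested in R 4.3.3 with edgeR 4.0.16: filterByExpr (minimum count 10, minimum total 15) left 10679 features, and the quasi-likelihood model had a coefficient for each group over all 32 libraries, scaled by TMM. Adjustment was by Benjamini-Hochberg over all tested features. The script was tested on simulated data. The edgeR p-values set a difference between groups against the spread between libraries, each from a separate animal. That spread includes counting error. The 9 genes and all gene lists were chosen with earlier results of these data known. Named genes were the members, the tested features of the segment, the 3 nearest tested genes on each side, called genes of chromosome 3, called or most abundant list genes and the 3 genes most like Spata5 or Anxa5. Predicted genes were named only as members or where called. Enpp6, Slc7a11, Abhd18, Anxa2 and Ccna2 fall outside this rule, and the first 4 were named after their values were seen. Alternatives were RLE scaling, no filter, a minimum count of 20, DESeq2 1.42.0 without independent filtering, limma 3.58.1 voom, covariates, subsets of libraries and leaving out each library. Relations used log2(CPM + 1) and 1e+05 permutations, two-sided.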

Additional observations from a re-analysis of the deposited data

Results flagged for a closer look

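Among the 36 pairs of a segment gene and a group, 2 held a library far from the others of its group, where chance gives about 1 in 20. Ankrd50 was at 38.5 CPM in WT replicate 5, and the nearest other WT library was at 27.1 CPM. Exosc9 was at 49.5 CPM in AON12.1 replicate 6, and the nearest other library of that group was at 32.6 CPM. Spata5 and Anxa5 held no such library in any group.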

How the results depend on the processing

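The log2 fold changes of the 5 tested members were recomputed in 341 fits under other settings and 640 leave-one-out fits. They kept their sign and side of the threshold in 298 and 590 of these. Of the rest, 26 and 37 changed sign, with 0 called, while 16 and 10 lost a call and 1 and 3 gained one. Spata5 kept its direction against WT in every fit that tested it and its call in each leave-one-out fit, from 1.24 to 1.69 on the log2 scale over the 3 groups. The pair was chosen by part of these same libraries, and Spata5 entered the test only through its YAC128 libraries. Its repeated calls are therefore a description and no support for the first call. Spata5 lost its calls against WT in the 18 series alone, and in the 19 series alone apart from all YAC128. It was not tested with a minimum count of 20, nor when the scrambled or AON12.1 group was fitted with WT alone. Anxa5 in YAC128 aCSF against WT was called in 5 of 10 other settings and in 6 of 16 leave-one-out fits, with values from 0.50 to 0.61. It was not called without a filter, with the no-feature share in the model, with only the groups compared in the fit or in either number series alone. For AON12.1 against WT it was called with a minimum count of 20 (edgeR adjusted p = 0.0386, range over other settings 0.0386 to 0.569) and without WT replicate 7, AON12.1 replicate 2 or AON12.1 replicate 4. The causes of these changes were not tested, and RLE scaling moved no count by over 1.5 times. No paired analysis was possible because the labels give animal numbers and no replicate numbers shared between groups.

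As reported, the genes called numbered 8 for YAC128 aCSF against WT, 18 for scrambled against WT, 60 for AON12.1 against WT, 25 for all YAC128 against WT, 15 for AON12.1 against scrambled, 33 for AON12.1 against aCSF and 9 for scrambled against aCSF. Without a filter, the genes called numbered 21 for YAC128 aCSF against WT, 33 for scrambled against WT, 48 for all YAC128 against WT, 57 for AON12.1 against aCSF and 14 for scrambled against aCSF. The called members there numbered 1 for YAC128 aCSF against WT. With a minimum count of 20, the genes called numbered 4 for YAC128 aCSF against WT and 4 for scrambled against aCSF. The called members there numbered 1 for YAC128 aCSF against WT, 1 for scrambled against WT and 1 for all YAC128 against WT. With DESeq2, the genes called numbered 30 for YAC128 aCSF against WT, 39 for scrambled against WT, 100 for AON12.1 against WT, 60 for all YAC128 against WT, 57 for AON12.1 against aCSF and 14 for scrambled against aCSF. With the no-feature share in the model, the genes called numbered 4 for YAC128 aCSF against WT and 28 for scrambled against WT. The called members there numbered 1 for YAC128 aCSF against WT. With the number series as a covariate, the genes called numbered 5 for scrambled against aCSF. With only the groups compared in the fit, the genes called numbered 7 for AON12.1 against scrambled and 5 for scrambled against aCSF. The called members there numbered 1 for YAC128 aCSF against WT, 1 for scrambled against WT and 0 for AON12.1 against WT. In the 18 series alone, the genes called numbered 2 for YAC128 aCSF against WT, 3 for scrambled against WT, 3 for AON12.1 against WT, 2 for all YAC128 against WT, 1 for AON12.1 against scrambled, 276 for AON12.1 against aCSF and 1 for scrambled against aCSF. The called members there numbered 0 for YAC128 aCSF against WT, 0 for scrambled against WT, 0 for AON12.1 against WT and 0 for all YAC128 against WT. In the 19 series alone, the genes called numbered 2 for YAC128 aCSF against WT, 4 for scrambled against WT, 26 for AON12.1 against WT, 9 for all YAC128 against WT, 5 for AON12.1 against scrambled, 2 for AON12.1 against aCSF and 1 for scrambled against aCSF. The called members there numbered 0 for YAC128 aCSF against WT, 0 for scrambled against WT, 0 for AON12.1 against WT and 1 for all YAC128 against WT. Fewer libraries entered the fits by series. The sign of a member's log2 fold change was the opposite of the reported one in these cases, 0 of them called. Without a filter it was -0.0058 for Exosc9 in AON12.1 against scrambled. With the no-feature share in the model it was 0.056 for Exosc9 in YAC128 aCSF against WT, -0.28 for 4932438A13Rik in YAC128 aCSF against WT, 0.0026 for Exosc9 in scrambled against WT, 0.055 for Exosc9 in AON12.1 against WT, -0.17 for 4932438A13Rik in AON12.1 against WT, 0.038 for Exosc9 in all YAC128 against WT, -0.082 for 4932438A13Rik in all YAC128 against WT, -0.0012 for Exosc9 in AON12.1 against aCSF and -0.054 for Exosc9 in scrambled against aCSF. With the number series as a covariate it was -0.00013 for Exosc9 in AON12.1 against scrambled. In the 18 series alone it was 0.19 for Ankrd50 in scrambled against WT, 0.24 for Exosc9 in scrambled against WT, -0.24 for 4932438A13Rik in AON12.1 against WT, -0.035 for 4932438A13Rik in all YAC128 against WT, -0.29 for Exosc9 in AON12.1 against scrambled, -0.27 for 4932438A13Rik in AON12.1 against aCSF and 0.026 for Spata5 in scrambled against aCSF. In the 19 series alone it was -0.097 for Ankrd50 in YAC128 aCSF against WT, 0.032 for Exosc9 in YAC128 aCSF against WT, -0.038 for 4932438A13Rik in YAC128 aCSF against WT, -0.090 for Ankrd50 in all YAC128 against WT, -0.12 for Spata5 in AON12.1 against aCSF, -0.11 for Exosc9 in AON12.1 against aCSF and -0.22 for Exosc9 in scrambled against aCSF. With limma voom it was -0.0072 for Ankrd50 in all YAC128 against WT.

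With each library left out in turn, values ranged as follows. Genes called ran from 3 to 142 for YAC128 aCSF against WT, 10 to 27 for scrambled against WT, 49 to 97 for AON12.1 against WT, 13 to 103 for all YAC128 against WT, 26 to 73 for AON12.1 against aCSF and 3 to 13 for scrambled against aCSF. Called members ran from 1 to 2 for YAC128 aCSF against WT and 1 to 2 for AON12.1 against WT. The widest change in YAC128 aCSF against WT came without WT replicate 1. The Spata5 value ran from -0.20 to 0.044 for scrambled against aCSF. The Ankrd50 value ran from -0.035 to 0.15 for YAC128 aCSF against WT, -0.19 to 0.028 for scrambled against WT, -0.00076 to 0.21 for AON12.1 against WT, -0.044 to 0.13 for all YAC128 against WT and -0.042 to 0.16 for AON12.1 against aCSF. The Exosc9 value ran from -0.13 to 0.013 for scrambled against WT, -0.19 to 0.015 for AON12.1 against WT, -0.14 to 0.0072 for all YAC128 against WT, -0.13 to 0.071 for AON12.1 against scrambled, -0.11 to 0.10 for AON12.1 against aCSF and -0.055 to 0.10 for scrambled against aCSF. The 4932438A13Rik value ran from -0.040 to 0.12 for YAC128 aCSF against WT, -0.067 to 0.18 for AON12.1 against WT and -0.11 to 0.13 for AON12.1 against aCSF. The few counts per library, 2 to 31 for Spata5 and 0 to 14 for the 4 untested members, limit what differences could be detected.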
